A study of Rattus norvegicus with 16 samples.

Results

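Smooth muscle contractile genes and pericyte markers were described in rat lung as a set of 32 named genes, 25 for the contractile apparatus of smooth muscle and 7 that mark pericytes. A gene was taken from the probe sets annotated to its symbol and to no other, choosing among several the brightest by its mean over all 16 arrays. This gave 30 of the 32 genes (23 contractile and 7 pericyte) among 14506 genes measured. Synpo2 and Itga8 were not analysed here.

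The lungs came from male Sprague-Dawley rats of 250 to 300 g, 1 array per rat and 4 rats per group. The normoxia group was neither hypoxic nor treated. The hypoxia group spent 2 weeks in a chamber at 362 mmHg, which corresponds to 10% oxygen at sea level. The hypoxia with estradiol group had the same exposure and also received the estrogen 17β-estradiol at 75 µg/kg/day for 3 weeks from a pump under the skin, beginning 1 week before the chamber. The hypoxia with estradiol and fulvestrant group received in addition fulvestrant, which blocks the estrogen receptors, at 3 mg/kg/day by injection. No group received fulvestrant without estradiol, no normoxic group received either agent, and the labels name no pump or injection without drug in the control rats. The study set the hypoxic groups against normoxia and asked which hypoxic changes estradiol altered and whether they depended on its receptors. The tissue was whole right lung, so airway and vessel muscle were measured together, and a smaller number of cells of 1 type cannot be told apart from less RNA per cell.

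Smooth muscle contracts when calcium activates myosin light chain kinase, the phosphorylated light chain lets myosin pull on actin, and a phosphatase reverses the step. Myocardin and serum response factor drive many of the contractile genes through CArG boxes in their promoters. In the lung these genes belong to the muscle of arteries, veins and airways, and in chronic hypoxia muscle is known to extend into small arteries that normally have little of it. Pericytes wrap the capillaries, depend on platelet-derived growth factor signalling through Pdgfrb, and share a lineage and several genes with vascular smooth muscle.

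Promoter windows (250 bases before to 50 after the start of the gene, RefSeq, rat build GRCr8) were found for 22 of the 30 measured genes. None was found for Myh11, Tagln, Myl9, Lmod1, Myocd, Pdgfrb, Higd1b and Cox4i2, and bases outside the windows were not searched. The 250 bases before the start are shown for Acta2, which encodes the main vascular actin, for Srf, which encodes the factor that binds CArG boxes, and for Des and Rgs5, which had the largest significant rise with hypoxia and the largest significant fall with estradiol. They lie at chr1:241172504-241172753 (minus strand) for Acta2, chr9:21923826-21924075 (plus) for Srf, chr9:84299376-84299625 (plus) for Des and chr13:84380827-84381076 (plus) for Rgs5. Capitals mark CArG boxes or, in Acta2, CArG-like elements, which have 1 of the middle A or T bases replaced by G or C.
Acta2: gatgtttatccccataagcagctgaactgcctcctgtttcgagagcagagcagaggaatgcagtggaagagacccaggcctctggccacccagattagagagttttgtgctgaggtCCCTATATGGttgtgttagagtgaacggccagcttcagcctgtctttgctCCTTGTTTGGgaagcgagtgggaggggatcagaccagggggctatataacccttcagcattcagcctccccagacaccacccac
Srf: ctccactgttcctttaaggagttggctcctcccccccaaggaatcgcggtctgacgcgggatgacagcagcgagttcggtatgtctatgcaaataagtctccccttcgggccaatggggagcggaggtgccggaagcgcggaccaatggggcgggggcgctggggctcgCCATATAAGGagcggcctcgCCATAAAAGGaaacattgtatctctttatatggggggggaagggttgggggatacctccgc
Des: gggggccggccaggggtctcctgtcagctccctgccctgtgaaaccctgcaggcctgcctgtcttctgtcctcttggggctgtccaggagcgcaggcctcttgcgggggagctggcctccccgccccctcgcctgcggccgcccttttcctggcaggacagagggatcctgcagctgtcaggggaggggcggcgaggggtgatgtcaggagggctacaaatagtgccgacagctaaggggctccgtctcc
Rgs5: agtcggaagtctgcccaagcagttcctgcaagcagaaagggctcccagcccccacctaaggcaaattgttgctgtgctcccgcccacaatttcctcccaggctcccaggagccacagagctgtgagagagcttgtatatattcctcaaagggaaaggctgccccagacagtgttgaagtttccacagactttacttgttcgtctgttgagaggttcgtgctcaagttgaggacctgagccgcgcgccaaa

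Both strands of each window were searched, and the motifs did not overlap each other. A CArG box was present in 1.64% of the 33469 rat promoter windows and, among the 23 windows of measured members, only in that of Srf, at -81 to -72 and -61 to -52 from its start. A CArG-like element was present in 8.1% of all windows and, among the members, only in that of Acta2, at -134 to -125 and -84 to -75. The hypoxia-inducible factor core ACGTG or GCGTG was in 41.6% of all windows and in 10 of the 23 (43.5%). The full palindromic estrogen response element was in 0.0269% of all windows and in 0 of the 23.

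Before the comparisons, some arrays stood apart. The title of normoxia replicate 4 says normoxia and its treatment field says hypoxia, so results against normoxia are also given with it counted as hypoxia. Normoxia replicates 3 and 4 held high levels of heart muscle genes. Their summed level, the mean over 17 measured genes relative to the normoxia mean, was 0.34 and 1.47 on the log2 scale in these 2 arrays, -0.91 and -0.89 in the other 2, and between -0.91 and -0.31 in the 12 hypoxic arrays. The atrial light chain gene Myl7 stood at 7.26, 7.07, 11.66 and 12.83 in the normoxia lungs, and the heart myosin gene Myh6 at 6.78, 6.44, 9.41 and 10.90. Estradiol replicates 2 and 3 were high in neutrophil genes (1.33 and 1.48, against 0.37 and 0.38 in the other 2) and in immediate early genes (1.98 and 1.05, against 0.43 and 0.35). Hypoxia replicate 2 was also high in immediate early genes (1.06, against 0.03 to 0.34 in the rest of its group). Airway epithelial genes (7 measured) also varied between lungs of a group, with levels of -0.54, -0.11, 0.07 and 0.58 in normoxia, 0.13, 0.53, 0.91 and 0.02 in hypoxia, -0.30 to 0.68 with estradiol and -0.18 to 0.36 with fulvestrant. The first of them, Scgb1a1, was at 13.65 to 13.84 in all lungs, whereas Scgb3a1, chosen after its values were seen, was 8.52, 9.51, 9.69 and 12.55 in normoxia. The endothelial gene Pecam1 was at 12.33 to 12.77. Array medians lay between 7.69 and 7.77 and pairwise correlations between 0.984 and 0.996.

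Chronic hypoxia raised part of the contractile set and 2 pericyte markers. Of the 23 contractile genes 8 rose, 0 fell and 15 did not pass the test. The 8 were Cnn1, Des, Smtn, Tpm2, Myl9, Cald1, Kcnmb1 and Actn1, with rises of 1.22-fold (Actn1) to 1.68-fold (Des). Of the 7 pericyte markers Pdgfrb and Cspg4 rose (1.22-fold and 1.34-fold) and 0 fell. Among all genes 5.63% passed (3.21% higher and 2.43% lower; limma, Benjamini-Hochberg adjusted p under 0.05 over all genes). The median difference was 0.23 on the log2 scale for the contractile genes and 0.19 for the pericyte markers, against 0.03 over all genes. In 11 contractile genes and 3 pericyte markers every hypoxic lung exceeded every normoxic lung, which held for 6.74% of all genes; the reverse held for 0 members and 5.33% of all genes. The pericyte median was 0.11 to 0.26 when 1 array was left out. With normoxia replicate 4 counted as hypoxia 3 members passed (Des, Tpm2 and Pln), where 0.276% of all genes did. Without it 10 passed, with Pln in and Cald1 out (4.69% of all genes), and without normoxia replicates 3 and 4 together 7 passed (6 contractile, 1 pericyte; 5.4% of all genes). The count was 5 without normoxia replicate 1 (2.95% of all genes) and 6 without hypoxia replicate 1 (3.05%). Cnn1, Des, Smtn, Kcnmb1 and Cspg4 passed whichever of the 8 arrays was left out.

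**Figure D1:**
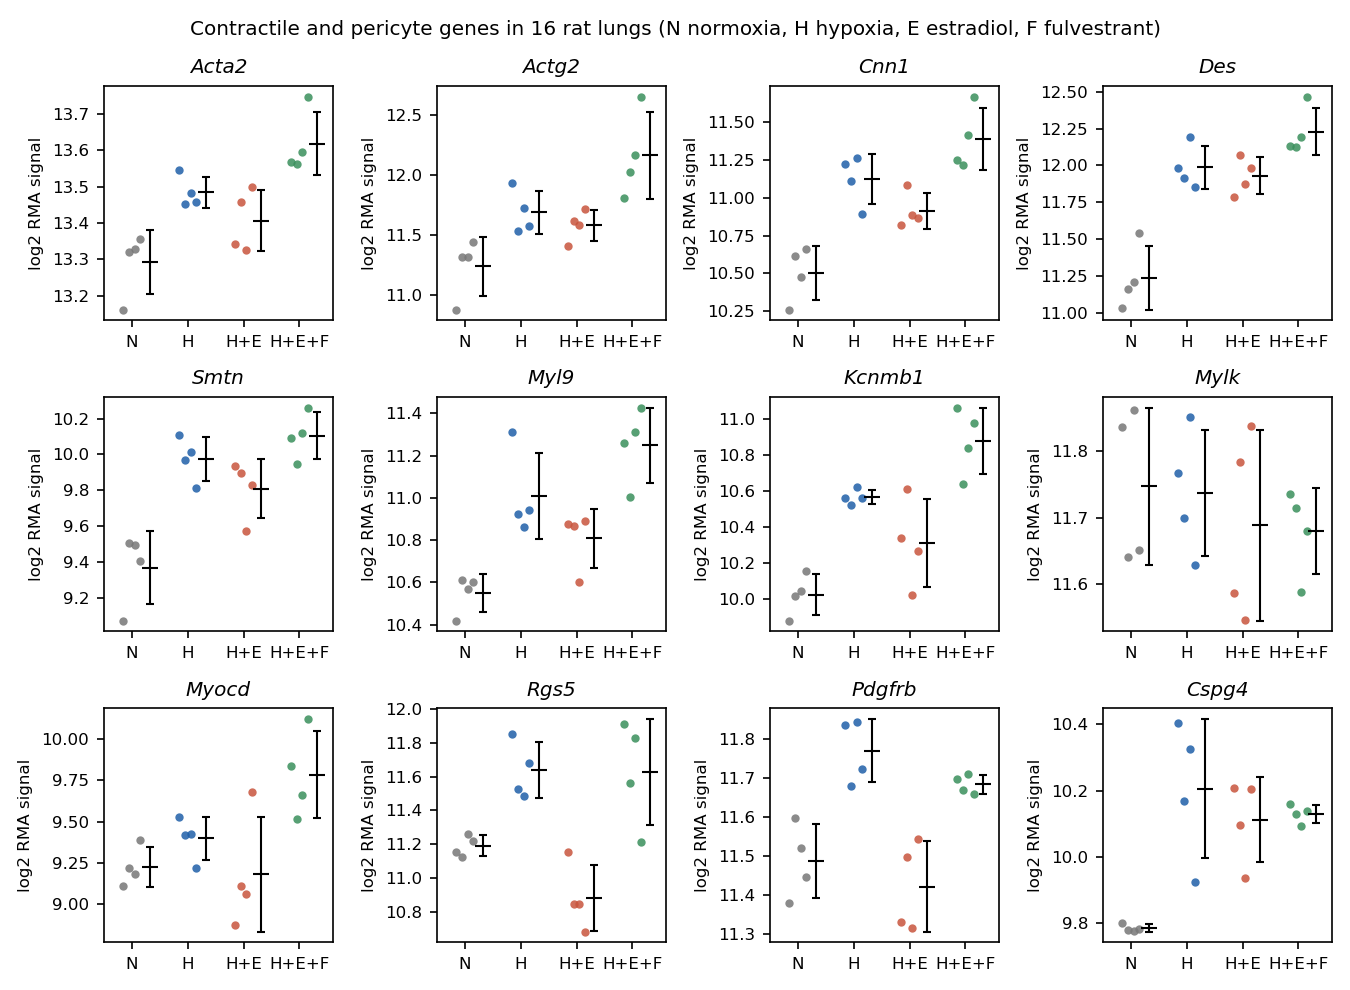
Each panel shows 1 gene as log2 signal, with 4 lungs per group as points and the mean ± SD as a bar beside them; y axes differ between panels and do not start at 0. In Cnn1, Des and Smtn the 4 normoxia lungs lie below all 12 hypoxic lungs, whereas Rgs5 and Pdgfrb are lower in the estradiol group than in the other hypoxic groups and Mylk differs little.

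The actins were measured by Acta2 and Actg2, and Lmod1, whose product nucleates actin filaments, was grouped with them. Acta2 signals were 13.16, 13.32, 13.33 and 13.36 in normoxia and 13.55, 13.45, 13.48 and 13.46 in hypoxia. The groups did not overlap, with a difference of 0.19 (SE 0.06), but it did not pass the test (limma adjusted p = 0.0861). Actg2, the actin typical of visceral muscle, was 10.88, 11.32, 11.32 and 11.44 in normoxia and 11.93, 11.53, 11.72 and 11.57 in hypoxia. These groups also did not overlap, and the difference of 0.45 (SE 0.16) did not pass (limma adjusted p = 0.107). Lmod1 differed by 0.19 and its arrays overlapped.

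Genes of the thin filament, whose products sit on actin and set its access to myosin, gave 4 of the 8 contractile calls with hypoxia. Cnn1, encoding calponin, stood at 10.26, 10.61, 10.47 and 10.66 in normoxia and at 11.22, 11.11, 11.26 and 10.89 in hypoxia. All hypoxic values were higher, by 0.62 on average (SE 0.11, limma adjusted p = 0.00365). Smtn, encoding smoothelin, a protein of contractile muscle filaments, was 9.08, 9.51, 9.49 and 9.41 in normoxia and 10.11, 9.97, 10.01 and 9.81 in hypoxia. The gap of 0.60 (SE 0.11, limma adjusted p = 0.00281) was larger than the spread within either group. Tpm2, encoding beta-tropomyosin, was 9.38, 9.62, 9.75 and 10.07 in normoxia and 10.38, 10.16, 10.30 and 10.08 in hypoxia. The highest normoxia value, in replicate 4, lay just under the lowest hypoxic one, and the difference was 0.52 (SE 0.13, limma adjusted p = 0.0239); the call was lost without normoxia replicate 1, normoxia replicate 2 or hypoxia replicate 1.

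Cald1, encoding caldesmon, which holds back actin and myosin at rest, was 10.72, 10.65, 10.58 and 10.58 in normoxia and 11.04, 10.90, 11.03 and 10.77 in hypoxia. Its difference of 0.30 (SE 0.08, limma adjusted p = 0.0384) passed only in 1 of the 8 fits that left out an array (hypoxia replicate 4). Tagln, encoding the actin-binding protein SM22, was 11.98, 12.15, 12.13 and 12.22 in normoxia and 12.47, 12.32, 12.42 and 12.32 in hypoxia. Its groups did not overlap, and the difference of 0.26 (SE 0.08) did not pass (limma adjusted p = 0.0602). The related tropomyosin gene Tpm1 and Hspb6, encoding a small heat shock protein of relaxing muscle, differed by 0.12 and -0.04 with overlapping arrays.

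Of the myosin genes and their switch only Myl9, encoding the regulatory light chain, passed with hypoxia. It was 10.42, 10.61, 10.57 and 10.60 in normoxia and 11.31, 10.92, 10.86 and 10.94 in hypoxia. The difference was 0.46 (SE 0.11, limma adjusted p = 0.0174), and the call was lost without normoxia replicate 1 or hypoxia replicate 1. Myh11, the smooth muscle myosin heavy chain, did not separate the groups, with 11.06, 11.30, 11.39 and 11.59 in normoxia and 11.57, 11.44, 11.69 and 11.16 in hypoxia. Its difference was 0.13, with a 95% interval of -0.15 to 0.41. Mylk, the kinase gene of the light chain, differed by -0.01 (-0.18 to 0.16). Ppp1r12b, a phosphatase targeting subunit, differed by -0.21 (-0.42 to -0.01, limma adjusted p = 0.228), and Ppp1r14a, the phosphatase inhibitor CPI-17, differed by 0.05 (-0.17 to 0.28).

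Des encodes desmin, the intermediate filament that links contractile units, and it had the largest rise among the members past the test. Signals were 11.03, 11.16, 11.21 and 11.54 in normoxia and 11.99, 11.92, 12.19 and 11.85 in hypoxia. The difference was 0.75 (SE 0.11, limma adjusted p = 0.000762), and it was also past the threshold with normoxia replicate 4 counted as hypoxia (0.76, limma adjusted p = 0.0213). Desmin is also a heart muscle protein, and its highest normoxia value was in replicate 4, the array with the highest heart muscle genes; without normoxia replicates 3 and 4 its difference was 0.89. Actn1, an alpha-actinin that anchors actin at adhesion sites, was 11.24, 11.33, 11.36 and 11.25 in normoxia and 11.54, 11.60, 11.64 and 11.57 in hypoxia. The groups were clearly apart (0.29, SE 0.07, limma adjusted p = 0.0154), though the call was lost without normoxia replicate 1. Vcl (vinculin) and Flna (filamin A), which are found in most cell types, differed by -0.07 and 0.11.

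For ion handling, Kcnmb1, encoding the beta subunit that tunes the large calcium-activated potassium channel, was 9.88, 10.02, 10.04 and 10.16 in normoxia and 10.56, 10.53, 10.62 and 10.56 in hypoxia. Its spread was small in hypoxia and the difference of 0.54 (SE 0.11, limma adjusted p = 0.00717) exceeded it. Kcnma1, the pore-forming subunit of the same channel and no member of the set, also rose (0.50, SE 0.12, limma adjusted p = 0.0234). Pln, encoding phospholamban, which restrains the calcium pump of muscle stores, was 7.16, 6.96, 7.69 and 8.77 in normoxia and 8.84, 8.35, 8.50 and 8.03 in hypoxia. Its high normoxia values were in replicates 3 and 4, the arrays high in heart muscle genes, a tissue that also expresses it, and the part of these cells in the Pln values was not tested. The difference of 0.79 (SE 0.28) did not pass (limma adjusted p = 0.12). Without normoxia replicate 4 it was 1.16 and passed (limma adjusted p = 0.00207), and without normoxia replicates 3 and 4 it was 1.37 (limma adjusted p = 0.000785).

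The transcription factor genes did not pass with hypoxia. Myocd (myocardin) differed by 0.17 (95% interval -0.15 to 0.49) and Srf by 0.23 (-0.07 to 0.52).

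Among the pericyte markers, the 3 genes of signalling separated the groups. Cspg4, encoding the surface proteoglycan NG2, was 9.80, 9.78, 9.78 and 9.78 in normoxia and 10.40, 10.17, 10.33 and 9.93 in hypoxia. The normoxic lungs were nearly identical and all below the hypoxic ones (0.42, SE 0.09, limma adjusted p = 0.00856). Pdgfrb, the receptor that recruits and keeps pericytes, was 11.38, 11.60, 11.52 and 11.45 in normoxia and 11.84, 11.68, 11.84 and 11.72 in hypoxia. It rose by 0.28 (SE 0.07, limma adjusted p = 0.0194), a call that was lost without normoxia replicate 1 or hypoxia replicate 1. Rgs5, a regulator of G protein signalling, was 11.15, 11.12, 11.26 and 11.22 in normoxia and 11.85, 11.53, 11.49 and 11.68 in hypoxia. Its arrays did not overlap, and the difference of 0.45 (SE 0.13) did not pass (limma adjusted p = 0.061). The mitochondrial genes Higd1b and Cox4i2 and the subunits of the ATP-sensitive potassium channel, Kcnj8 and Abcc9, overlapped between the groups, with differences of -0.04 (Abcc9) to 0.19 (Kcnj8 and Cox4i2).

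**Figure D2:**
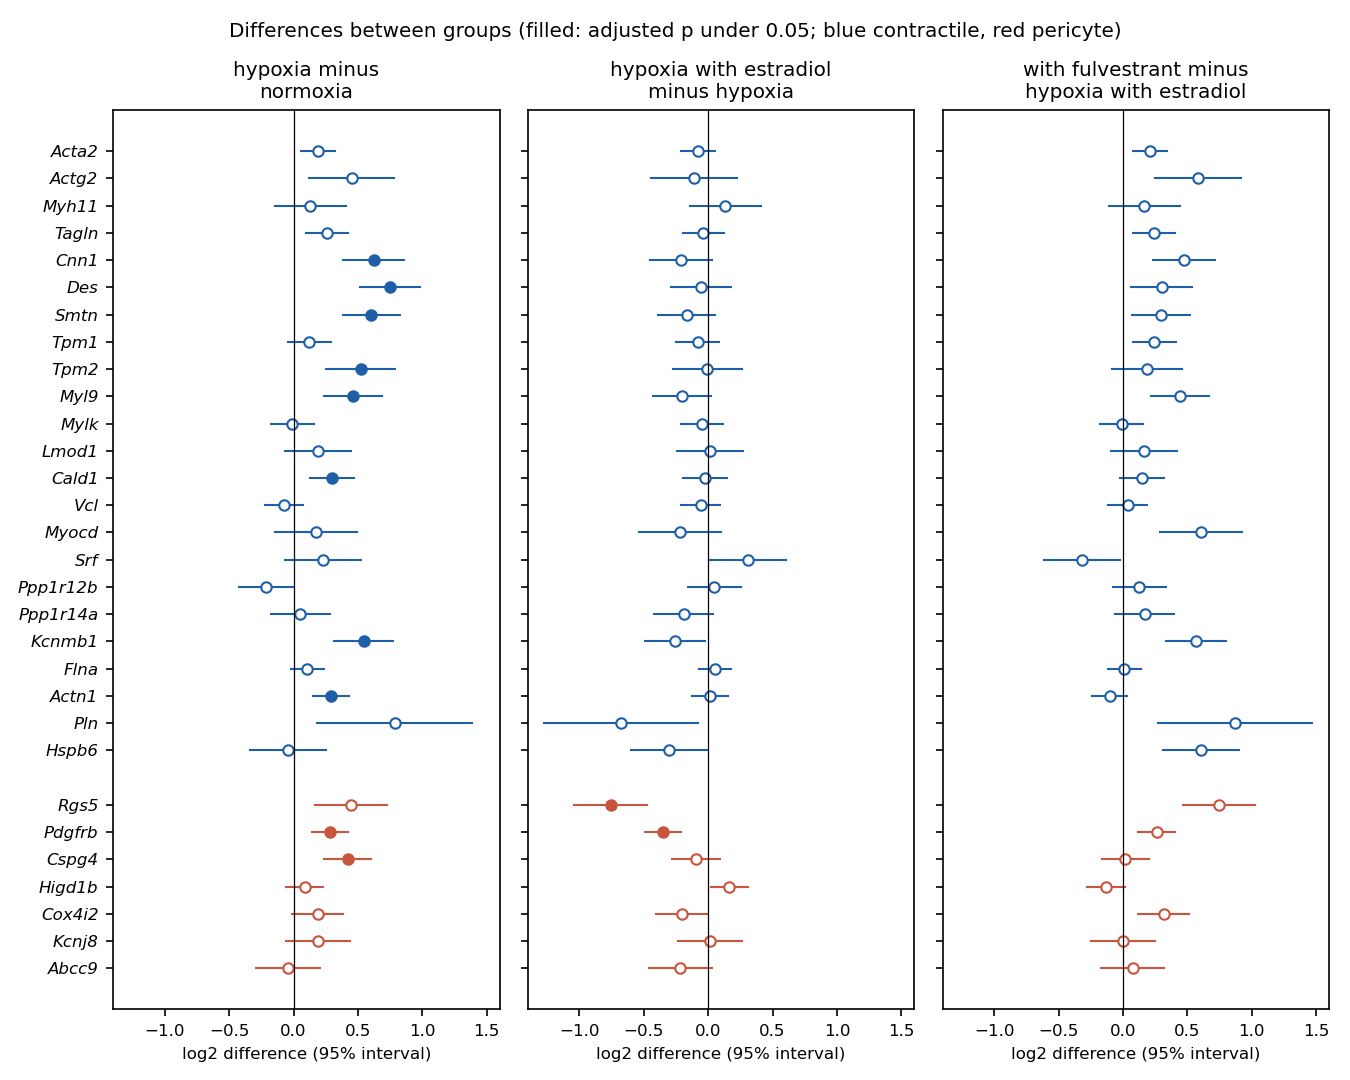
Log2 differences with 95% intervals for the 30 measured genes in the 3 main comparisons, with contractile genes above and pericyte markers below. Filled points passed the test: 8 contractile and 2 pericyte genes are higher with hypoxia, Rgs5 and Pdgfrb are lower with estradiol, and 0 genes are filled with fulvestrant.

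Other genes of contraction did not move in 1 direction as a group, with 15 higher and 19 lower by sign. Of 34 measured, 4 rose with hypoxia, 1 fell and 29 did not pass, with a median of -0.01. In the same comparison 3.21% of all genes rose and 2.43% fell. The risers were Pdlim7 (0.57), Kcnma1 (0.50), Tgfb1i1 (0.41), encoding an adhesion protein also named Hic-5, and Jph2 (0.31), which ties calcium stores to the cell membrane. Pdlim3, of the same family of filament adaptors as Pdlim7, fell by 0.45. Of 16 other mural cell genes, Trpc6, a cation channel gene of lung artery muscle (0.66), and Cd248, a surface protein gene of pericytes and fibroblasts (0.40), rose, Angpt1, a pericyte ligand for endothelium, fell by 0.46, and 13 did not pass. Fibroblast markers gave 0 calls of 11 with hypoxia, at a median of 0.07. Their level per lung was -0.29 to 0.21 in normoxia, -0.09 to 0.20 in hypoxia, -0.09 to 0.11 with estradiol and -0.05 to 0.12 with fulvestrant, and Col1a1, the first of them, differed by 0.37 (limma adjusted p = 0.315). The endothelial list had 2 higher and 1 lower of 9. Airway genes gave 0 calls of 7 with hypoxia, at a median of 0.04. Erythroid genes were higher in 4 of 4 by sign (median 1.56) and 1 passed (Hemgn), with levels of -0.30 to 0.34 in normoxia and 2.30, 1.95, 0.00 and 2.09 in hypoxia. Neutrophil genes were lower in 8 of 8 by sign (median -0.76) and 0 passed, with levels of -0.43 to 0.26 in normoxia and -1.18 to -0.34 in hypoxia. The part of these cell types in the result was not tested.

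Estradiol given during hypoxia lowered 2 pericyte markers and left no contractile gene past the test. Rgs5 fell 1.69-fold and Pdgfrb 1.27-fold against hypoxia alone, the other 5 pericyte markers and all 23 contractile genes did not pass, and 0 members rose. Over all genes 0.772% passed (0.31% higher and 0.462% lower). The median difference was -0.06 for contractile genes and -0.21 for pericyte markers, against -0.02 over all genes. At an unadjusted p under 0.05 the contractile set had 1 gene higher and 3 lower of 23, beside 1001 higher and 1334 lower among 14506 genes. The comparison shares the 4 hypoxia arrays with the one against normoxia, so high hypoxia values would enter both with opposite sign.

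Rgs5 was 11.15, 10.85, 10.85 and 10.68 with estradiol, against 11.49 to 11.85 in hypoxia. The estradiol lungs were all lower, 3 of them also below every normoxia lung, and the difference was -0.76 (SE 0.13, limma adjusted p = 0.0362). Pdgfrb was 11.33, 11.50, 11.31 and 11.54 with estradiol, against 11.68 to 11.84 in hypoxia. The groups did not overlap and the difference was -0.35 (SE 0.07, limma adjusted p = 0.0362). Both calls were lost without hypoxia replicate 1, 2 or 4, without estradiol replicate 2 or 3, and without estradiol replicates 2 and 3 together; that of Pdgfrb was also lost without hypoxia replicate 3. Calls over all genes fell in most of the same fits, from 112 to 7, 3 and 5 without hypoxia replicate 1, 2 and 4, to 4 without estradiol replicate 2 or 3 and to 0 without both, and they were 95 without hypoxia replicate 3, 219 without estradiol replicate 1 and 355 without estradiol replicate 4. Neutrophil genes moved in the same comparison: 8 of 8 rose, with levels of -1.18 to -0.34 in hypoxia and 0.37 to 1.48 with estradiol, S100a8 by 1.74 and S100a9 by 1.61. In estradiol replicates 1 to 4 the neutrophil levels were 0.37, 1.33, 1.48 and 0.38, beside Rgs5 at 11.15, 10.85, 10.85 and 10.68. The part of these cells in the result was not tested.

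Of the remaining pericyte markers Higd1b went the other way, with 8.44, 8.34, 8.36 and 8.41 with estradiol against 8.12 to 8.32 in hypoxia. These groups did not overlap, and the difference of 0.16 (SE 0.07) did not pass (limma adjusted p = 0.257); 3.19% of all genes were higher without overlap. Cspg4, which had risen with hypoxia, differed by -0.09, with a 95% interval of -0.28 to 0.09. Of 16 other mural genes 2 fell and 0 rose: Vtn, encoding vitronectin (-0.51, SE 0.10, limma adjusted p = 0.0362), and Ebf1, a transcription factor gene of mural and B cells (-0.38, SE 0.08, limma adjusted p = 0.0392). Of 34 other contraction genes 0 passed.

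The contractile genes that rose with hypoxia stood between hypoxia and normoxia or near hypoxia in the estradiol group. Cnn1 was 10.82, 11.08, 10.88 and 10.87 with estradiol, and its difference from hypoxia was -0.21 (95% interval -0.45 to 0.03). Des was 11.78, 12.07, 11.88 and 11.99, and differed by -0.06 (-0.29 to 0.18). Kcnmb1 was 10.34, 10.61, 10.02 and 10.27, a wide spread, and differed by -0.26 (-0.49 to -0.03, limma adjusted p = 0.266). Pln was the only contractile gene whose arrays did not overlap, at 7.67, 7.78, 7.62 and 7.94 with estradiol against 8.03 to 8.84 in hypoxia, and the difference of -0.68 (SE 0.28) did not pass (limma adjusted p = 0.257). In a fit without normoxia replicates 3 and 4, chosen after seeing the data, it passed (limma adjusted p = 0.0478) beside Rgs5 and Pdgfrb. In that fit 0.696% of all genes passed. The arrays left out belong to neither group compared, and leaving them out narrows the spread shared by the groups. Arrays that do not overlap and are lower made up 3.46% of all genes.

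Srf, at 10.96, 11.73, 11.26 and 10.91 with estradiol, had its high values in replicates 2 and 3. These were the lungs of that group with the highest immediate early genes (1.98 and 1.05). Srf is itself known as an immediate early gene. Fos, the first of that list, was 8.20, 10.76, 9.74 and 8.64 in the estradiol group. Among the hypoxia lungs, replicate 2 stood at 1.06 for immediate early genes, and the SD of Srf was 0.09. The part of that response in the Srf values was not tested. Against hypoxia Srf differed by 0.31 (SE 0.14), which did not pass (limma adjusted p = 0.291). Myocd, its coactivator, was 8.87, 9.11, 9.06 and 9.68, with 1 high lung and a difference of -0.22 (95% interval -0.54 to 0.10).

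**Figure D3:**
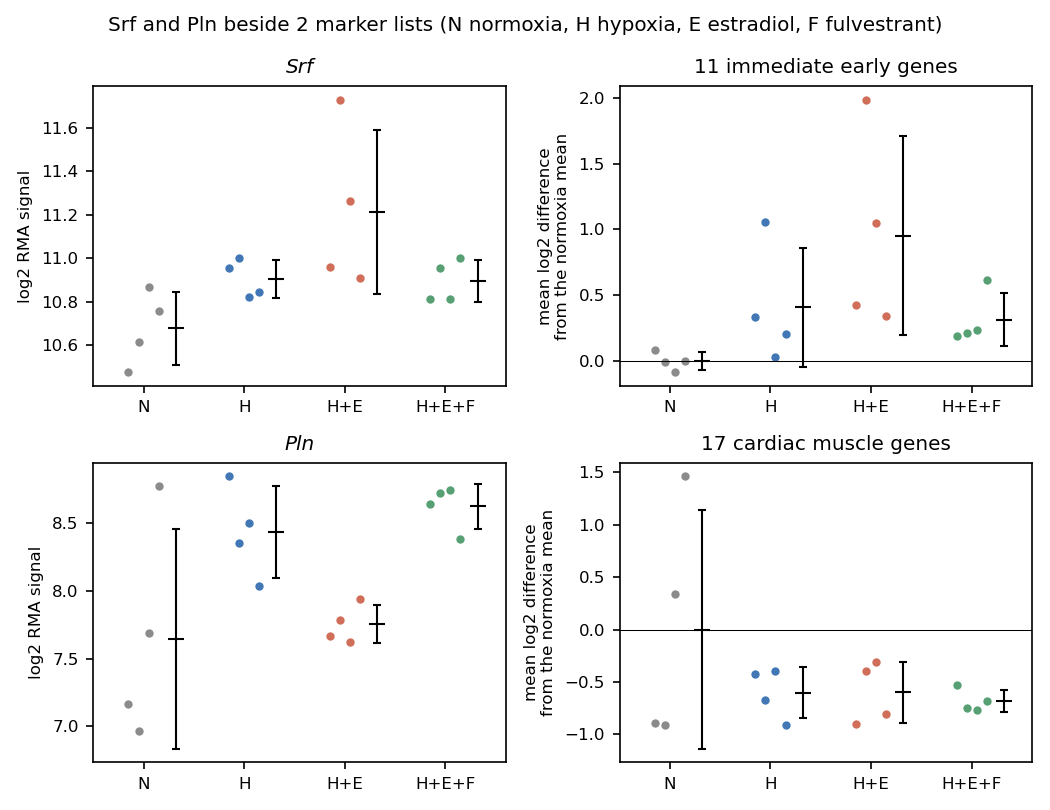
Srf and Pln as log2 signal (left) and the mean log2 level of 11 immediate early and 17 cardiac muscle genes relative to the normoxia mean (right), 4 lungs per group as points with mean ± SD bars. The 2 high Srf values of the estradiol group fall in the lungs at 1.98 and 1.05 for immediate early genes, and the high normoxia value of Pln, 8.77, falls in the lung at 1.47 for cardiac genes. Hypoxia replicate 2 lies at 1.06 for immediate early genes.

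Fulvestrant added to estradiol gave 0 members past the test, where 0.0483% of all genes passed (0.0207% higher and 0.0276% lower, 3 and 4 genes). At an unadjusted p under 0.05, 12 contractile genes were higher and 1 lower, and 3 pericyte markers were higher and 0 lower, beside 1098 higher and 1044 lower among 14506 genes. In 10 contractile genes and 2 pericyte markers every lung with fulvestrant exceeded every lung with estradiol alone, which held for 4.78% of all genes. The reverse held for 0 contractile genes and for Higd1b, and for 4.27% of all genes. The median difference was 0.21 for contractile genes and 0.08 for pericyte markers, against 0.00 over all genes. The comparison shares the 4 estradiol arrays with the one before. Without estradiol replicate 4, 6 members passed (Myl9, Kcnmb1, Hspb6, Myocd, Rgs5 and Pdgfrb), and calls over all genes then also rose, from 7 to 331 genes (2.28%).

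The smallest adjusted p was 0.0586 (limma), for Rgs5 and Kcnmb1. Rgs5 was 11.91, 11.56, 11.83 and 11.21 with fulvestrant, all above the estradiol lungs though 1 narrowly, and differed by 0.75 (SE 0.13). Kcnmb1 was 11.06, 10.64, 10.84 and 10.98 and differed by 0.57 (SE 0.11). Both passed when arrays were quantile normalized again, when the dimmest 25% of genes were left out or with an intensity trend (limma adjusted p of 0.0383 to 0.0481), settings in which 0.227%, 0.257% and 0.234% of all genes passed. Pdgfrb was 11.70, 11.67, 11.71 and 11.66, a narrow group above all estradiol lungs, and differed by 0.26 (SE 0.07, limma adjusted p = 0.0876).

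Hspb6 had its lowest group with estradiol, at 9.90, 9.88, 9.82 and 10.36, and was 10.38, 10.52, 10.62 and 10.85 with fulvestrant. The difference was 0.61 (SE 0.14, limma adjusted p = 0.076), and the highest estradiol value lay just below the lowest fulvestrant one. Actg2 was 11.81, 12.03, 12.17 and 12.65 with fulvestrant against 11.41 to 11.72 with estradiol, a difference of 0.58 (SE 0.16, limma adjusted p = 0.101). Myocd was 9.84, 9.52, 9.66 and 10.12, overlapping the 1 high estradiol lung, with a difference of 0.60 (SE 0.15, limma adjusted p = 0.0815). Acta2, Cnn1, Des, Smtn, Tpm1, Myl9 and Pln were the others without overlap, with differences of 0.21 (Acta2) to 0.87 (Pln). Mylk, Flna and Vcl differed by -0.01, 0.01 and 0.04, with 95% intervals of -0.17 to 0.16, -0.11 to 0.14 and -0.11 to 0.19.

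Of the other contraction genes and the other mural genes 0 of 34 and 0 of 16 passed with fulvestrant. Neutrophil genes were lower in 8 of 8 by sign and 0 passed, immediate early genes were lower in 11 of 11 by sign and 0 passed, and their part in the differences of the set was not tested.

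Per lung, the mean of the 23 contractile genes relative to normoxia was -0.16, -0.03, 0.04 and 0.14 in normoxia. The airway genes and the mean over all genes (-0.0099, -0.0021, 0.0026 and 0.0094) had the same order of lungs. In hypoxia the orders differed, and the part of airway content was not tested. The contractile mean was 0.40, 0.24, 0.31 and 0.17 in hypoxia, 0.12, 0.30, 0.09 and 0.24 with estradiol, and 0.42, 0.33, 0.44 and 0.60 with fulvestrant. Hypoxia lay above normoxia throughout, estradiol alone overlapped both, and fulvestrant lay above estradiol alone. The mean of the 7 pericyte markers was 0.39, 0.19, 0.18 and 0.14 in hypoxia, 0.09, 0.05, -0.14 and 0.07 with estradiol, and 0.25, 0.14, 0.27 and 0.16 with fulvestrant, against -0.06, -0.03, 0.07 and 0.02 in normoxia. Here estradiol alone overlapped normoxia and lay below every other hypoxic lung.

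**Figure D4:**
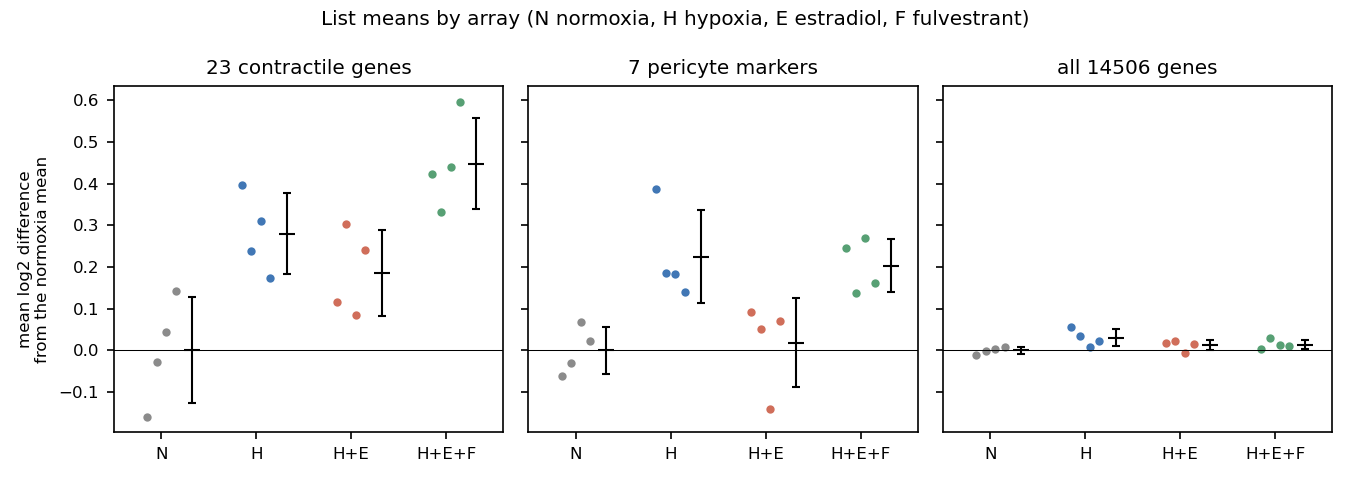
Mean log2 difference from the normoxia mean over 23 contractile genes, 7 pericyte markers and all 14506 genes, 4 lungs per group as points with mean ± SD bars. Contractile means average 0.28 in hypoxia, 0.19 with estradiol and 0.45 with fulvestrant, and pericyte means 0.22, 0.02 and 0.20.

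Set against normoxia, the fulvestrant group had the most members past the test. With estradiol and fulvestrant 10 contractile genes and 1 pericyte marker rose and 0 fell, where 2.96% of all genes passed (1.97% higher), and 14 contractile genes and 2 pericyte markers were higher without overlap, beside 7.13% of all genes. With estradiol alone 6 contractile genes and 2 pericyte markers rose and 0 fell, where 5.21% of all genes passed (2.87% higher), and 8 contractile genes and 2 pericyte markers were higher without overlap, beside 5.03% of all genes. Differences between these counts were not tested, and the comparisons share the 4 normoxia arrays. In the fulvestrant group the rises reached 1.99-fold for Des (SE 0.11, limma adjusted p = 0.000105), 1.90-fold for Actg2 (0.93, SE 0.16, limma adjusted p = 0.00271), 1.85-fold for Cnn1 and 1.81-fold for Kcnmb1, and Acta2 (0.33), Tagln (0.47), Smtn (0.73), Tpm2 (0.70), Myl9 (0.70) and Cald1 (0.43) also passed. All of these but Cald1 also passed with normoxia replicate 4 counted as hypoxia and without normoxia replicates 3 and 4. Pln differed by 0.98 (SE 0.28, limma adjusted p = 0.0811) and, without normoxia replicate 4, by 1.35 (limma adjusted p = 0.000844). Cspg4 (0.34, limma adjusted p = 0.0419) lost its call in each of 8 fits that left out an array.

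With estradiol alone the contractile genes past the test against normoxia were Des (0.69), Srf (0.54), Tpm2 (0.52), Smtn (0.44), Cnn1 (0.41) and Actn1 (0.30), and the pericyte markers were Cspg4 (0.33) and Higd1b (0.25). Of these only Des passed in each fit that left out an array; 3 members passed with normoxia replicate 4 counted as hypoxia (2.42% of all genes), 3 without estradiol replicates 2 and 3 (2.24%), and 1 without normoxia replicate 1 (2.65%). Srf lost its call without estradiol replicate 2 or 3. Rgs5 and Pdgfrb differed from normoxia by -0.31 (95% interval -0.59 to -0.03, limma adjusted p = 0.227) and -0.07 (-0.21 to 0.08). Between the fulvestrant group and hypoxia alone 0 members and 0 of all genes passed in limma; at an unadjusted p under 0.05, 10 contractile genes were higher and 0 lower, 0 pericyte markers passed, and 445 of all genes were higher and 564 lower. In 2 contractile genes the fulvestrant lungs were higher without overlap, beside 2.29% of all genes.

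**Figure D5:**
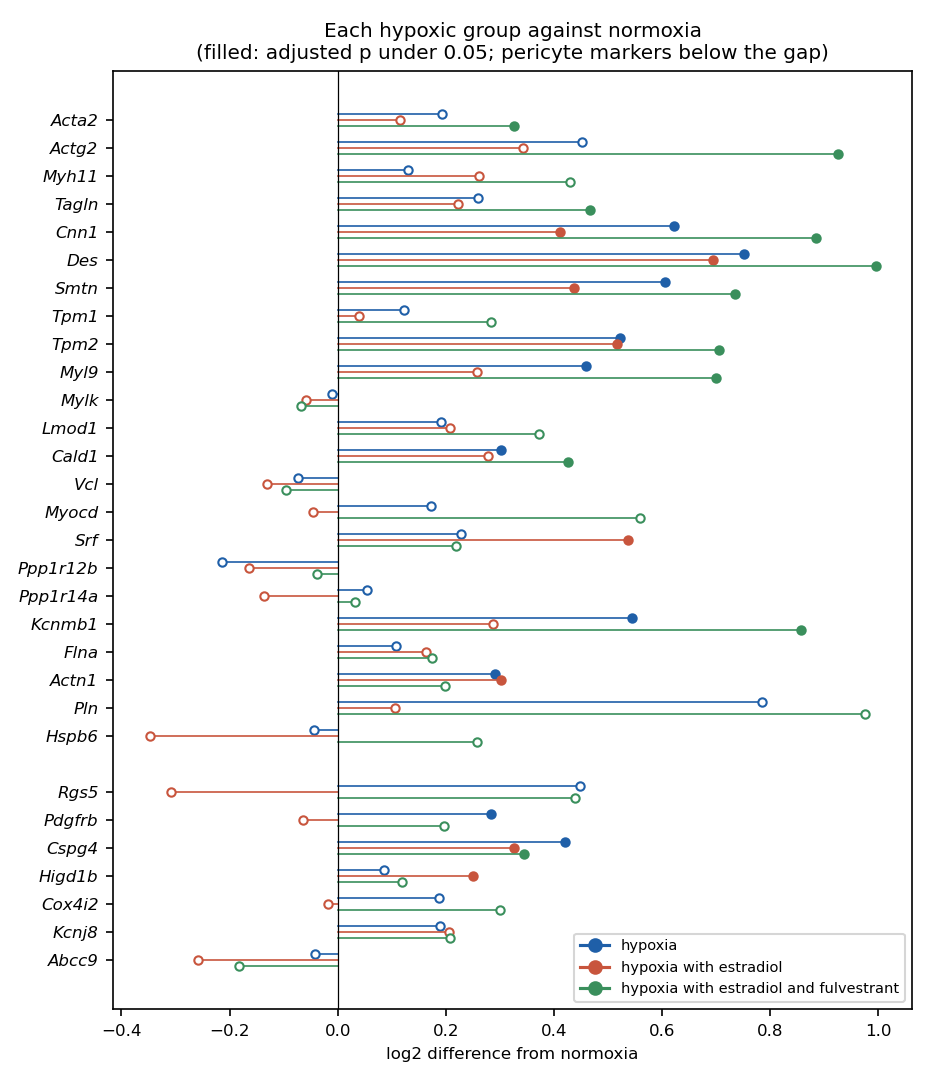
Log2 difference from normoxia in the 3 hypoxic groups for the 30 measured genes, each group a colour, filled where the adjusted p was under 0.05. Actg2, Cnn1 and Kcnmb1 reach 0.93, 0.88 and 0.86 in the fulvestrant group, while Rgs5 lies at 0.45 in hypoxia, -0.31 with estradiol and 0.44 with fulvestrant.

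By group mean, 17 of the 23 contractile genes were highest with estradiol and fulvestrant and 17 were lowest in normoxia. Of the 7 pericyte markers 3 were highest in hypoxia and 4 were lowest with estradiol alone. The order of group means was not counted over all genes, so these counts have no share of all genes beside them. Des, Cnn1, Smtn, Tpm2 and Cspg4 passed against normoxia in each of the 3 hypoxic groups. Of the 30 genes, 14 passed in 0 of the 6 comparisons. Neither count has a share of all genes beside it, and the comparisons against normoxia share its 4 arrays. With 1 array removed, Des kept its 3 calls in 8 of 8 fits. With estradiol alone, Cnn1 and Cspg4 kept theirs in 1 of 8 fits, Smtn in 5 and Tpm2 in 4. Cspg4 kept its call in 0 of 8 with fulvestrant, and Tpm2 in 5 of 8 with hypoxia. The remaining calls of these genes were kept in 8 of 8. The standard deviation within a group had a median over contractile genes of 0.13 (hypoxia) to 0.16 (fulvestrant), beside 0.09 to 0.13 over all genes.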

How the data were processed

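Lung RNA of 16 rats, 4 per group, was measured on Affymetrix rat gene arrays. The deposited values are log2 signals that the authors made with RMA and Partek, per the submitters' processing notes; versions, settings and genome build are not given in the sources used here. RMA forces the arrays to a common distribution, which hides a change common to most genes, and it compresses differences of dim probe sets. The number of arrays limits the precision. Groups came from sample titles, and replicate numbers follow submission order. Of 29214 probe sets, 15310 had 1 symbol in the platform annotation, 323 several and 13581 none, giving 14506 genes with no filter on low values. Only Abcc9 among the members had a second probe set, which gave the same directions and passed in 0 of 6 comparisons.

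Groups were compared with limma 3.58.1 (R 4.3.3), fitting 4 group means over 16 arrays, moderated standard errors and Benjamini-Hochberg adjustment over all genes at 0.05; this was tested on simulated data. Nothing in the labels ties a rat to a litter, cage or batch, so such differences between groups could not be examined. The p-values set each group difference against the spread between lungs within groups. The members and gene lists were chosen with earlier results of these data known. Members past the threshold in a main comparison are given with values for that comparison. Of members with arrays that do not overlap, some in the fulvestrant comparison, among them Tpm1, are given there only by a range of differences. Other members are given by differences or ranges. Of the other lists, genes past the threshold and the first markers are named. Alternatives changed scaling, probe set choice, filter, variance model and arrays. Leaving out normoxia replicates 3 and 4 together was chosen after seeing the data.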

Additional observations from a re-analysis of the deposited data

Results flagged for a closer look

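In 8 of 120 groups of 4 values (30 genes in 4 groups) 1 lung lay far from the other 3; chance alone gives about 1 in 20. In normoxia, Tpm1 was 10.51 in replicate 1 against 10.71 to 10.73 in the others. In hypoxia, Cox4i2 was 10.21 in replicate 1 against 9.84 to 9.90. In the estradiol group, replicate 3 was low in Myl9 (10.60 against 10.87 to 10.89), Ppp1r14a (10.00 against 10.32 to 10.36) and Abcc9 (9.68 against 10.16 to 10.21). In the same group Ppp1r12b was 8.33 in replicate 1 against 8.58 to 8.60, and Hspb6 was 10.36 in replicate 4 against 9.82 to 9.90. With fulvestrant, Higd1b was 8.18 in replicate 4 against 8.27 to 8.29.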

How the results depend on the processing

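Of the member differences past the threshold, or without overlap in a main comparison, 0 changed sign under the alternatives run; over these, 858 values kept their side of the threshold, 131 lost it and 19 gained it. Of all 180 pairs of a member and a comparison, 31 changed sign under at least 1 alternative, among them Mylk and Hspb6 with hypoxia; these were small (at most 0.137 in size) and 0 of them passed under either sign. The pericyte medians of fulvestrant against estradiol, of fulvestrant against hypoxia and of estradiol against normoxia also changed sign. Members past the threshold with hypoxia numbered 10, and 3 with normoxia replicate 4 counted as hypoxia; leaving out 1 array gave 5 to 10, and a pericyte median of 0.11 to 0.26. With estradiol against hypoxia the 2 calls became 0 with all probe sets, with only the 2 groups compared and with array weights. Calls over all genes then fell from 112 to 4 (of 29214 probe sets), 5 and 4. The 2 calls also became 0 with normoxia replicate 4 counted as hypoxia and without estradiol replicates 2 and 3 (pericyte median then -0.0816). In both of these fits 0 of all genes passed. Leaving out 1 array gave 0 to 2 members, and a pericyte median of -0.254 to -0.0906. With fulvestrant against estradiol 0 became 2 after quantile normalization again, with the dimmest genes left out and with an intensity trend; leaving out 1 array gave 0 to 6, and a pericyte median of -0.0402 to 0.128. With estradiol against normoxia 8 became 4 with all probe sets or array weights, and 1 with only the 2 groups. The share of all genes fell from 5.21% to 2.33% (of 29214 probe sets), 3.47% and 1.49%. The count was 3 with normoxia replicate 4 counted as hypoxia (2.42% of all genes) or without estradiol replicates 2 and 3 (2.24%, pericyte median then 0.11). Leaving out 1 array gave 1 to 6, and a pericyte median of -0.08 to 0.03. With fulvestrant against normoxia it gave 10 to 11, and against hypoxia 0 to 0 with a pericyte median of -0.0867 to 0.0379. Centring arrays on their medians moved all genes with estradiol against normoxia from 417 higher and 339 lower to 499 and 260. The causes were not tested. No paired analysis was possible because replicate numbers follow submission order alone.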
